A study of Mus musculus with 3 samples.

Results

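The primary granule genes described here are 9 of the 16742 genes listed in any of 3 RNA-seq libraries. They are Elane, Prtn3, Ctsg, Mpo, Prss57, Cst7, Ctsc, Srgn and Ms4a3. They were chosen by name for what they are known to do, with earlier results of these data known. Their NCBI gene numbers were looked up in the files, and all 9 were listed in every library. The libraries came from a mouse model of acute promyelocytic leukemia (APL) caused by TBLR1-RARα (TR), a fusion of the corepressor subunit TBLR1 with the retinoic acid receptor alpha. There was 1 library per group, and each pooled bone marrow cells of 3 C57BL/6 mice whose age is given as 6 to 8 weeks. The control was the lin- cells of wild type mice, which are the cells left once those with mature lineage markers are removed. TR1 and TR9 were GFP+ cells of TBLR1-RARa mice in the third transplant generation. Their leukemia began in wild type lin- cells transduced with a retrovirus that carries TR and GFP on one transcript, and it was passed on by serial transplantation of spleen cells, so each TR line descends from 1 primary mouse. Control cells were isolated by lineage depletion and carried no vector, whereas TR cells were sorted for GFP, and these differences cannot be told apart from that of TR itself.

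Primary (azurophilic) granules are the first granules that a developing neutrophil makes, and they are filled at the promyelocyte stage. Their serine proteases, neutrophil elastase (Elane), proteinase 3 (Prtn3), cathepsin G (Ctsg) and neutrophil serine protease 4 (Prss57), are made as inactive precursors. Cathepsin C (Ctsc) cuts a dipeptide from their N-terminus to activate them, cystatin F (Cst7) is an inhibitor of cathepsin C, and the proteoglycan serglycin (Srgn) holds the proteases in the granule. Myeloperoxidase (Mpo) turns hydrogen peroxide and chloride into hypochlorous acid, and Ms4a3 encodes a membrane protein of granulocyte and monocyte progenitors. In APL, leukemic cells arrested near the promyelocyte stage accumulate.

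The libraries were of similar depth, with 5129662 to 5571409 expected counts in total and 14642 to 15302 genes listed. Expected counts are the read counts that RSEM assigned to each gene, and FPKM are the same counts scaled for transcript length and library total. With 1 library per group there is no replicate error. The intervals below are 95% exact (Clopper-Pearson) intervals that cover counting error only, and a difference is one between these libraries, not between conditions. A gene was called when a conditional exact Poisson test passed a false discovery rate of 0.001 and FPKM differed by a log2 ratio of 1 or more in size. The expected counts of all 9 genes were whole numbers (within 0.001) in every library, so none of their reads had been divided with another gene. In RNA of mixed cells, fewer cells of a type and less RNA per cell cannot be told apart.

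The 9 genes took up 0.862% of all expected counts in control (95% exact interval 0.854 to 0.870), 3.55% in TR1 (3.53 to 3.56) and 3.07% in TR9 (3.06 to 3.09). As a share of summed FPKM, chosen after seeing the data, they held 1.15%, 4.66% and 5.53%, which puts TR9 above TR1. Their share was thus higher in both TR libraries than in control by either measure, and the make-up of that share differed between the 3 libraries. Mpo held 67.4% of the counts of the 9 genes in control, 55.3% in TR1 and 29.5% in TR9. Elane, Prtn3 and Ctsg together held 20.1% in control, 33.5% in TR1 and 59.6% in TR9. In control and TR1 more of these counts were of the peroxidase than of the 3 proteases, and in TR9 the order was the other way round. This order holds for counts, which grow with transcript length. The Mpo transcript has 2570 bases, against 920 for Elane, 983 for Prtn3 and 1004 for Ctsg. Per length, Elane alone was already above Mpo in TR1, at 9103 against 7585 FPKM. Of the 100 genes with the most counts, 1 was from this group in control and 5 in each TR library.

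**Figure D1:**
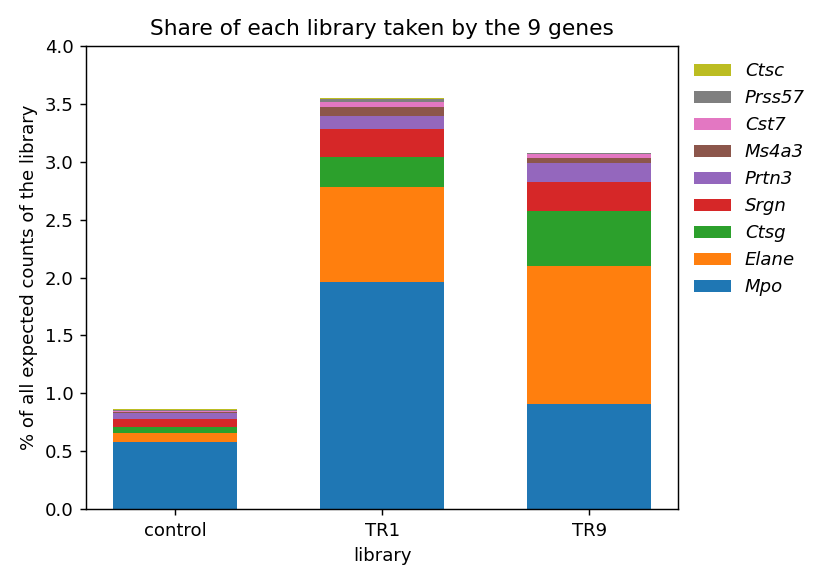
Stacked bars give the share of all expected counts of each library taken by the 9 genes, in percent, with 1 bar per library and 1 colour per gene. The bars reach 0.862% in the control, 3.55% in TR1 and 3.07% in TR9, and the Mpo segment is 1.96% in TR1 against 0.906% in TR9, while the Elane segment is 0.820% against 1.19%.

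Elane, on chromosome 10 from 79886247 to 79888215 (plus strand, GRCm38, GENCODE M21), had the highest FPKM of all genes in TR9. Its level was 866 FPKM in control, 9103 in TR1 and 13178 in TR9, from 4272, 45700 and 60820 expected counts. It ranked 68th of all listed genes by FPKM in control, 3rd in TR1 and 1st in TR9. Both TR libraries were far above control and TR9 was the higher of the pair, with a log2 ratio to control of 3.39 in TR1 (3.35 to 3.44) and 3.93 in TR9 (3.88 to 3.97), which are 10.5-fold and 15.2-fold. Ctsg, on chromosome 14 from 56099881 to 56102574 (minus strand), followed the same order of libraries. Its FPKM was 503 in the control, 2605 in TR1 and 4847 in TR9, and it was the fourth gene of TR9 by FPKM. The log2 ratio of Ctsg to control was 2.37 in TR1 (2.31 to 2.43) and 3.27 in TR9 (3.21 to 3.33).

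Prtn3, on chromosome 10 from 79874476 to 79883174 (plus strand), lies 3072 bases before Elane in the same orientation. Its FPKM was 476 in the control, 1160 in TR1 and 1749 in TR9. Prtn3 was higher in both TR libraries, but by less than Elane, with log2 ratios of 1.29 in TR1 (1.22 to 1.35) and 1.88 in TR9 (1.81 to 1.94). In GENCODE M21 its exons share 159 bases with Plppr3 on the other strand, and reads from such bases cannot be assigned to a strand where the library protocol does not state one. Prss57, on chromosome 10 from 79781474 to 79790961 (minus strand), lies 83514 bases before Prtn3. It was the least abundant of the 4 proteases, with 20.3 FPKM in control, 97.5 in TR1 and 30.9 in TR9, from 301, 1471 and 428 expected counts. TR1 stood apart from the other libraries here, with a log2 ratio of 2.26 to control (2.08 to 2.45), against 0.60 in TR9 (0.39 to 0.82), which was not called. Prss57 shares 1157 exonic bases with Fstl3 on the other strand.

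Ctsc, the activator of these proteases, was the member that was lower in the TR libraries. It lies on chromosome 7 from 88278085 to 88310888 (plus strand). Its FPKM was 23.0 in control (20.5 to 25.7), 5.57 in TR1 (4.40 to 6.96) and 9.36 in TR9 (7.75 to 11.2), from 313, 77 and 119 expected counts. The 3 intervals do not overlap, and the log2 ratio to control was −2.05 in TR1 (−2.43 to −1.68) and −1.30 in TR9 (−1.62 to −0.99), which are 4.13-fold and 2.46-fold lower. Cst7, the inhibitor of cathepsin C on chromosome 2 from 150570415 to 150578944 (plus strand), was higher in both. It had 73.0 FPKM in control, 473 in TR1 and 393 in TR9, with log2 ratios of 2.69 in TR1 (2.54 to 2.85) and 2.43 in TR9 (2.27 to 2.59). The gene of the activating enzyme and the gene of its inhibitor therefore lay on opposite sides of control in both TR lines.

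Mpo, on chromosome 11 from 87793581 to 87804413 (plus strand), was already among the most abundant genes of the control library. Its FPKM was 2255 in the control, 7585 in TR1 and 3514 in TR9. The rank of Mpo by FPKM was 4 in control and 5 in both TR libraries. The log2 ratio to control was 1.75 in TR1 (1.73 to 1.77) and 0.64 in TR9 (0.62 to 0.66), and the value in TR9 was not called because it lay under the threshold of 1. GENCODE M21 lists an antisense gene, Gm11505, that shares 512 exonic bases with Mpo. Ms4a3, on chromosome 19 from 11629496 to 11640851 (minus strand), had the same order of libraries. It had 151 FPKM in control, 825 in TR1 and 411 in TR9, with log2 ratios of 2.45 in TR1 (2.34 to 2.56) and 1.45 in TR9 (1.33 to 1.57). Srgn, on chromosome 10 from 62493833 to 62527451 (minus strand), was higher than control by nearly the same amount in both lines. Its FPKM was 815 in control, 2628 in TR1 and 2691 in TR9, with log2 ratios of 1.69 (1.64 to 1.74) and 1.72 (1.67 to 1.78).

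**Figure D2:**
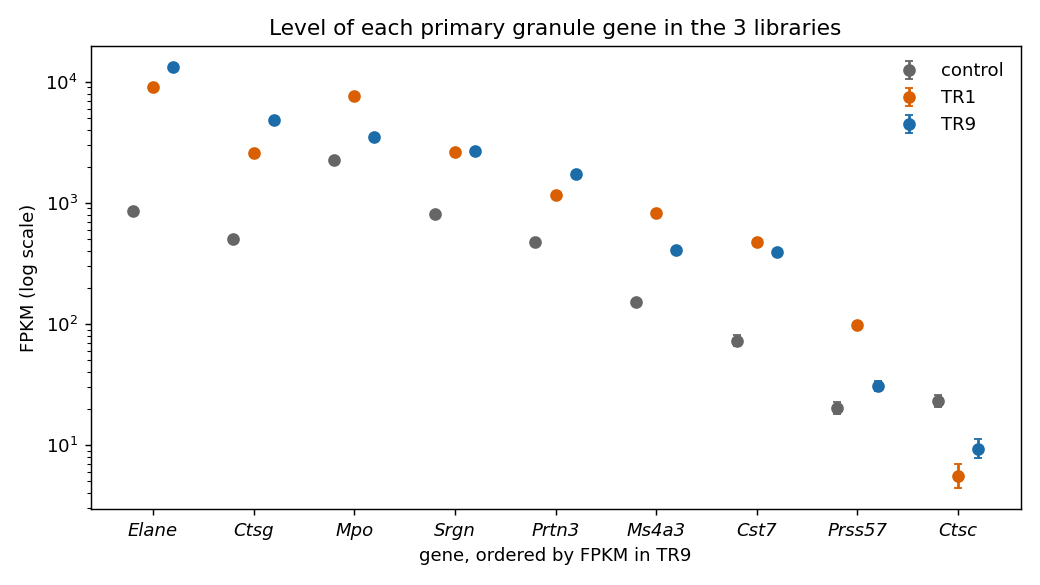
Points give the FPKM of each gene on a log axis in the control, TR1 and TR9 libraries, with genes ordered by their FPKM in TR9 and bars for the 95% exact counting interval. The TR9 point is the highest of the 3 for Elane, Ctsg, Prtn3 and Srgn, the TR1 point for Mpo, Ms4a3, Cst7 and Prss57, and the control point for Ctsc.

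Per length, the order of the genes in control was Mpo, Elane, Srgn, Ctsg, Prtn3, Ms4a3, Cst7, Ctsc and Prss57. The counting intervals of Elane and Srgn overlapped, as did those of Ctsg and Prtn3 and those of Ctsc and Prss57, and the differences within these pairs were not tested. In TR1 the order was Elane, Mpo, Srgn, Ctsg, Prtn3, Ms4a3, Cst7, Prss57 and Ctsc, and only Srgn and Ctsg overlapped. In TR9 it was Elane, Ctsg, Mpo, Srgn, Prtn3, Ms4a3, Cst7, Prss57 and Ctsc, and only Ms4a3 and Cst7 overlapped. Elane thus replaced Mpo at the head in both TR libraries, and Ctsc moved to the last place.

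Of the 9 genes, 8 were called higher in TR1 than in control and 1, Ctsc, was called lower, where 8.09% of the 16282 genes tested were called higher and 13% lower. In TR9, 6 were called higher and Ctsc lower, where 9.37% of 16303 genes were called higher and 10.8% lower. The genes not called in TR9 were Mpo and Prss57. The median log2 ratio of the 9 genes was 2.26 in TR1 and 1.72 in TR9, beside −0.29 and −0.12 over all genes tested. Both comparisons use the same control library, so they are not independent of each other. FPKM are scaled by the library total. With TMM scaling from edgeR, which sets the bulk of genes level, every log2 ratio moved by 0.25 in TR1 and 0.11 in TR9, and with TPM scaling, which sets the summed FPKM level, by −0.23 and −0.11. Of all genes called in TR1, 61.7% were lower, against 48.4% with TMM and 73.3% with TPM. No member changed direction against control under these scalings. The log2 ratio of Prtn3 in TR1, the smallest of the 8, ranged from 1.06 to 1.54 over the alternatives tried, and that of Elane from 3.17 to 3.64. If a spread between mice is assumed, fewer genes are called. With edgeR's exact test at a biological coefficient of variation of 0.2, Prtn3 in TR1 and Ms4a3 and Ctsc in TR9 were no longer called, and at 0.4 Elane in TR9 was the one gene called in either line.

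**Figure D3:**
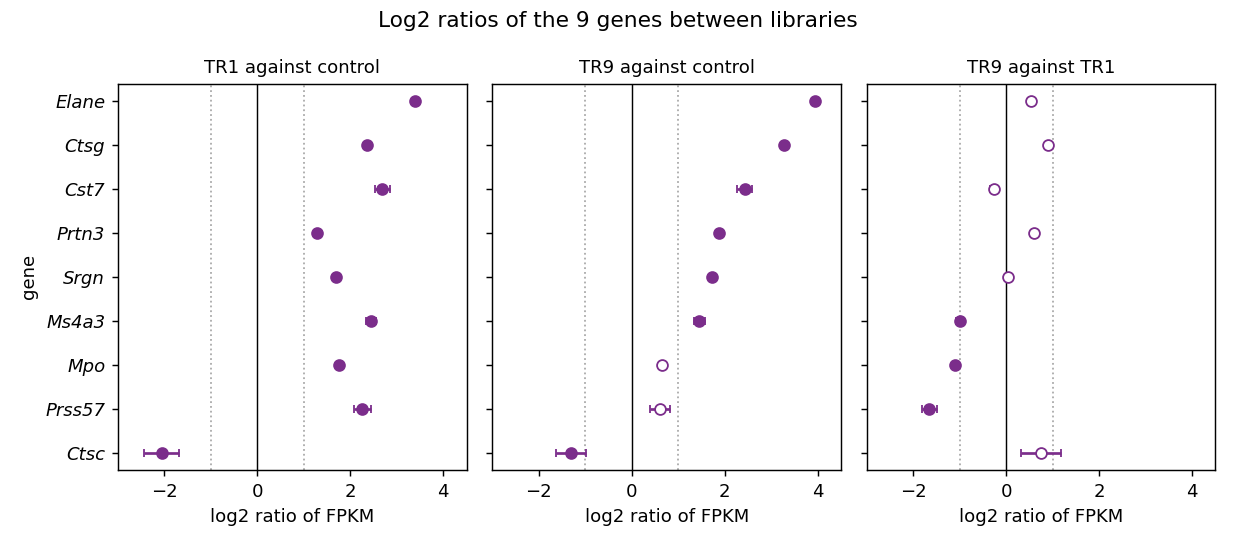
Points give the log2 ratio of FPKM of each gene for TR1 against control, TR9 against control and TR9 against TR1, with bars for the 95% counting interval. Filled points were called, open points were not, and dotted lines mark a log2 ratio of 1 in either direction. Ctsc is the one gene left of 0 in both comparisons with control, at −2.05 and −1.30.

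The TR lines were also compared directly. Between TR9 and TR1, 3 of the 9 genes were called lower in TR9 and 0 higher, where 2.31% of 15706 genes were called lower and 4.34% higher. The lower genes were Prss57, with a log2 ratio of −1.66 (−1.82 to −1.50), Mpo with −1.11 (−1.13 to −1.09) and Ms4a3 with −1.00 (−1.08 to −0.93). The other proteases and their activator lay on the other side of 0 but under the threshold. The log2 ratio was 0.90 for Ctsg (0.87 to 0.93), 0.59 for Prtn3 (0.55 to 0.64), 0.53 for Elane (0.52 to 0.55) and 0.75 for Ctsc (0.32 to 1.18). Cst7 was at −0.27 (−0.35 to −0.18). Srgn differed by no more than counting error, at 0.03 (−0.00 to 0.07), and its sign depended on the scaling, with −0.10 under TMM. The median of the 9 genes was 0.03, beside 0.13 over all genes. With TPM scaling, Mpo (−0.99) and Ms4a3 (−0.89) were no longer called, and Ctsg (1.01) was called higher. With either assumed spread, 0 of the 9 genes were called between the lines.

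Ratios between 2 genes of the same library do not depend on how libraries are scaled. There were 2.60 FPKM of Mpo for each FPKM of Elane in the control, 0.833 in TR1 and 0.267 in TR9. The log2 of this ratio moved by −1.64 in TR1 (−1.69 to −1.60) and by −3.29 in TR9 (−3.34 to −3.24). Peroxidase RNA thus fell relative to elastase RNA in each TR library, and more so in TR9. Prtn3 per Elane was 0.549 in the control, 0.127 in TR1 and 0.133 in TR9, and Ctsg per Elane was 0.581, 0.286 and 0.368. The levels of these 3 proteases were thus closer to each other in control than in either TR library. Prss57 per Elane was 0.0234 in the control, 0.0107 in TR1 and 0.00234 in TR9, and Srgn per Elane was 0.940, 0.289 and 0.204. Prss57 and Mpo kept nearly the same ratio in control and TR9, at 0.00901 and 0.00878, and the log2 change was −0.04 (−0.25 to 0.18).

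The 3 most abundant proteases were also set against the enzyme that activates them. Elane per Ctsc was 37.6 in the control, 1634 in TR1 and 1408 in TR9. Ctsg per Ctsc was 21.8 in the control, 468 in TR1 and 518 in TR9, and Prtn3 per Ctsc was 20.7, 208 and 187. The 2 TR libraries did not differ beyond counting error in any of these, with a log2 change between them of −0.22 for Elane (−0.63 to 0.20), 0.15 for Ctsg (−0.27 to 0.56) and −0.16 for Prtn3 (−0.57 to 0.26). Cst7 per Ctsc, inhibitor over target, was 3.17 in the control, 84.9 in TR1 and 42.0 in TR9. The log2 of this ratio changed by 4.74 in TR1 (4.35 to 5.13) and 3.73 in TR9 (3.38 to 4.07). These are ratios of RNA, and neither protein nor enzyme activity was measured here.

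**Figure D4:**
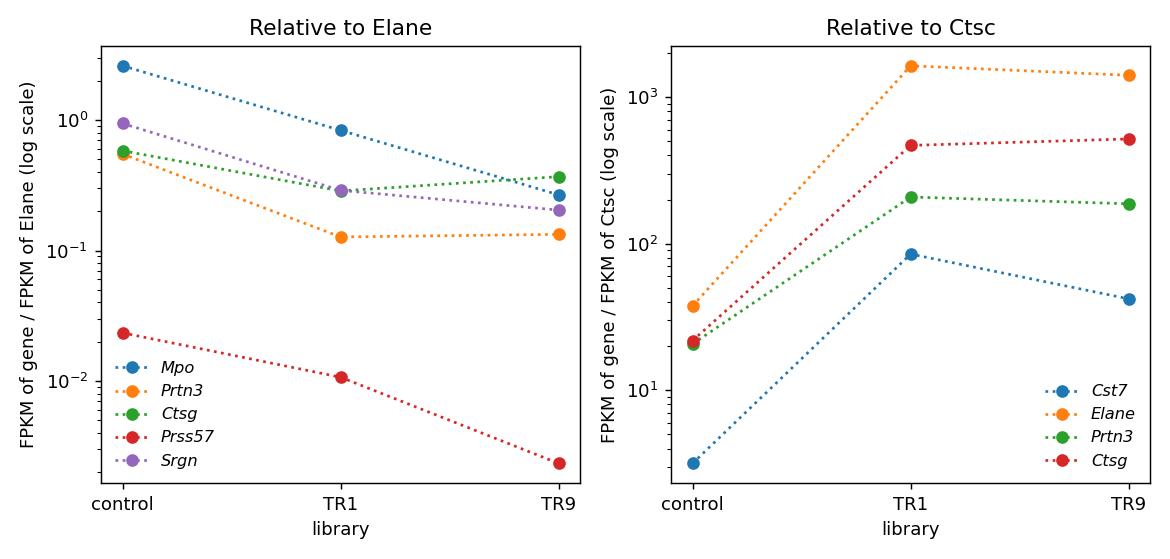
Points give the FPKM of a gene divided by that of Elane (left) or Ctsc (right) within each library, on log axes, with dotted lines joining the points of a gene. On the left, Mpo per Elane drops from 2.60 in control to 0.267 in TR9. On the right all 4 ratios are higher in the TR libraries, and Elane per Ctsc reaches 1634 in TR1.

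The promoters are shown because these genes are known to be switched on by a shared set of factors, and because Ctsc moved the other way. RefSeq (GRCm38.p6) gave 9 windows of 250 bases before the start site for 8 of the 9 genes, with 2 windows for Srgn. Prss57 had no entry. Both strands were searched for letters known from the binding motifs of 4 kinds of factor and for a TATA box. For MYB these were AACTG or AACGG. For PU.1, which binds many myeloid promoters, the letters GAGGAA were used. The letters of RUNX factors were TGTGGT, while those of the C/EBP family, which is needed for granulocytes, were TTNNGNAA. The TATA box was searched as TATAAA. The windows of the 3 most abundant proteases, Mpo and Ctsc are printed 5′ to 3′ along the gene, with every match to any of these letters in capitals, whichever strand it is on.
Elane (chr10:79886062-79886311, plus strand): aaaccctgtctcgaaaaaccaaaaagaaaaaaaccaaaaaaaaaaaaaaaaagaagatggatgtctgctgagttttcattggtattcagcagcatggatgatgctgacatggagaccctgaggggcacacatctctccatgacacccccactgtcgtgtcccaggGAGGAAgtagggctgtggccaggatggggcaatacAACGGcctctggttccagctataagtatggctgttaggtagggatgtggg
Prtn3 (chr10:79879417-79879666, plus strand): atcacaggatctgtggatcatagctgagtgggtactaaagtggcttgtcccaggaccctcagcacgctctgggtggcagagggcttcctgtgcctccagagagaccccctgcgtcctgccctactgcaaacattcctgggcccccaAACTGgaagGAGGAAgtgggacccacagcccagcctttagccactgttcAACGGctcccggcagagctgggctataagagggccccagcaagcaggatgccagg
Ctsg (chr14:56102575-56102824, minus strand): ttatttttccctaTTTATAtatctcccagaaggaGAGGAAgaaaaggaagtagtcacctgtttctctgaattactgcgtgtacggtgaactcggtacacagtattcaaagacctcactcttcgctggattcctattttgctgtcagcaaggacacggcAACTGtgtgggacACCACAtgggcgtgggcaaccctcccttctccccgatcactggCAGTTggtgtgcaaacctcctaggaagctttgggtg
Mpo (chr11:87793534-87793783, plus strand): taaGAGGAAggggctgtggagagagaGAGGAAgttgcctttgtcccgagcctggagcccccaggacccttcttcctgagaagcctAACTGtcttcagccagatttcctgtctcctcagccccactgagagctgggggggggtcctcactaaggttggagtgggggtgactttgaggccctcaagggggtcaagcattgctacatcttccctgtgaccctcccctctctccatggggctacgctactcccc
Ctsc (chr7:88277835-88278084, plus strand): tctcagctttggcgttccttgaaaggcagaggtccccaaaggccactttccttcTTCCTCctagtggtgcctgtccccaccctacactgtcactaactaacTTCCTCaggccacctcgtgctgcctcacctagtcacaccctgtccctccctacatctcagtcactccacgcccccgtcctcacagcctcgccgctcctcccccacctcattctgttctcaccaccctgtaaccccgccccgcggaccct

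MYB letters stood in 7 of the 9 windows, and 48.6% of all 32851 promoters held them. PU.1 letters stood in 5 (23.3% of all promoters), RUNX letters in 3 (14.0%), C/EBP letters in 3 (36.8%) and TATA letters in 2 (12.4%). In the Elane window, counted back from the start site, the PU.1 letters began at −85 and AACGG at −50. The Prtn3 window held AACTG at −104, PU.1 letters at −95 and AACGG at −55. Ctsg had MYB letters at −92 and −36, RUNX letters at −79 and PU.1 letters at −216, and Mpo had MYB letters at −165 and PU.1 letters at −247 and −224. Both MYB and PU.1 letters were found in the windows of these 4 genes and of no other member, and in 11.5% of all promoters. This pair was picked after the matches were seen. The Ctsc window held PU.1 letters at −196 and −149 and no MYB letters, and that of Ms4a3 held only C/EBP letters, at −59. C/EBP matches overlapped each other in the second Srgn window, and one shared a base with a MYB match. A match to letters is a description and not a site. GENCODE M21 starts the gene 65 bases before the RefSeq start for Elane and 203 for Mpo, and at the same base for Ctsg. For Prtn3 it also starts further upstream, so this window lies within the GENCODE gene.

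Of 8 transcription factor genes known to act on these promoters, 4 were called higher in TR1 and 5 in TR9, and 0 lower, with median log2 ratios of 1.04 and 2.10. Over all genes tested, 8.09% were called higher and 13% lower in TR1, and 9.37% higher and 10.8% lower in TR9, with medians of −0.29 and −0.12. Gfi1, a repressor needed for neutrophil development, had 193, 2002 and 2553 expected counts in control, TR1 and TR9, with log2 ratios of 3.37 (3.15 to 3.59) and 3.84 (3.63 to 4.06). Cebpe, which drives the step from promyelocyte to later stages, had 71, 482 and 571 counts, and Cebpa, needed to form granulocyte progenitors, had 470, 1226 and 1945. Cebpb, used in emergency granulopoiesis, had 44, 251 and 198. All 4 were called higher in both lines. Spi1, which encodes PU.1, had 434, 733 and 1690 counts and was called in TR9 with 2.06 (1.90 to 2.21), but not in TR1 with 0.73 (0.56 to 0.91). Myb had 4108, 2805 and 4250 counts and was called in neither, with −0.58 (−0.65 to −0.51) in TR1 and 0.14 (0.08 to 0.21) in TR9.

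Other contents and membrane proteins of primary granules, most of them shared with lysosomes, had smaller median log2 ratios than the 9 genes. Of 13 listed, 4 were called higher and 1 lower in TR1, and 5 higher and 1 lower in TR9, with median log2 ratios of 0.76 and 0.69. The shares over all genes tested were 8.09% higher and 13% lower in TR1, and 9.37% higher and 10.8% lower in TR9. Cd63, a granule membrane tetraspanin, had 444, 2188 and 2166 expected counts in control, TR1 and TR9, with log2 ratios of 2.28 (2.13 to 2.43) and 2.38 (2.23 to 2.53). Lyz2, lysozyme of myeloid cells, had 709.16, 5668.83 and 3601.99 counts, which are not whole, so reads were divided with its near copy Lyz1 or another gene. Its log2 ratios were 2.97 and 2.44, and those of Lyz1 were 3.24 and 2.80. Cd68, a lysosomal glycoprotein, had 117, 879 and 298 counts and log2 ratios of 2.88 and 1.44. Hexa, a lysosomal hexosaminidase subunit, was called in neither line, at 0.88 and 0.44.

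Inhibitors of granule proteases were counted as a separate list, of which 12 of 19 genes were listed. In TR1, 3 of 11 tested were called higher and 1 lower, and in TR9 4 of 12 were higher and 1 lower. The shares over all genes tested were 8.09% higher and 13% lower in TR1, and 9.37% higher and 10.8% lower in TR9. The median was 0.83 in TR1 and 0.67 in TR9. For ratios of count shares with every count under 3 raised to 3, it was 0.46 and 0.10. Slpi, a secreted inhibitor of elastase and cathepsin G, rose from 57 counts in control to 747 in TR1 and 1297 in TR9, with log2 ratios of 3.69 (3.30 to 4.10) and 4.60 (4.22 to 5.01). Serpinb1a, which inhibits elastase, cathepsin G and proteinase 3 within the cell, had log2 ratios of 2.89 (2.75 to 3.02) and 2.06 (1.92 to 2.20). Its counts were not whole in control. Cstb, a cystatin of the cytosol, had 1.40 and 1.81. Cst3, a secreted cystatin, was called in neither line, at 0.45 and −0.10.

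Of 15 genes that fold and sort granule proteins or form the granules, 2 were called higher and 0 lower in each line, where 8.09% of all genes tested were called higher in TR1 and 9.37% in TR9. The median log2 ratio of these 15 genes was −0.03 in both lines, beside −0.29 and −0.12 over all genes. The called genes were Lyst, mutated in Chediak-Higashi syndrome with its giant granules, with 2.02 (1.90 to 2.15) in TR1 and 1.94 (1.81 to 2.07) in TR9, and Rab27a, a GTPase of granule release, with 1.52 (1.39 to 1.65) and 1.91 (1.79 to 2.04). Calr, the chaperone calreticulin, which binds myeloperoxidase precursor, had 10961, 11727 and 9641 counts and log2 ratios of 0.07 and −0.09. Canx and Pdia3, of the same folding cycle, lay between −0.66 and 0.33. Of 12 enzymes that build the chondroitin sulfate chains of serglycin, 1 was called higher and 1 lower in TR1, and 2 higher and 1 lower in TR9. Chst12, a chondroitin sulfotransferase, had log2 ratios of 1.06 (0.88 to 1.24) and 1.84 (1.67 to 2.01). Csgalnact1, which starts the chains, had 63, 11 and 2 counts and was called lower, with −2.53 (−3.60 to −1.59) and −4.85 (−7.93 to −2.94), while its relative Csgalnact2 had 951, 1322 and 1939.

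Close relatives of the proteases and of myeloperoxidase were called in both directions. Of 20 other granule serine proteases, 8 were listed, and 1 was called higher and 3 lower in each line. The shares over all genes tested were 8.09% higher and 13% lower in TR1, and 9.37% higher and 10.8% lower in TR9. Prss34, a basophil and mast cell tryptase, had 3346, 3 and 10 counts, with log2 ratios of −10.14 (−12.42 to −8.59) and −8.29 (−9.36 to −7.41). Mcpt8, a basophil protease, had 1113, 263 and 280, with log2 ratios of −2.11 (−2.31 to −1.91) and −1.90 (−2.09 to −1.70). Gzmb, granzyme B of cytotoxic lymphocytes, had 13, 0 and 0 counts, which puts control at least 4.40-fold above TR1 and at least 4.05-fold above TR9. The relative called higher was Cfd, complement factor D, from 1 count in control to 20 and 24. Epx, the peroxidase of eosinophil granules, had 1817, 6 and 10 counts. Lpo, the third peroxidase of that cluster, had 11, 31 and 12 and was not called. Of 12 relatives of Ms4a3 tested in TR1, 2 were called higher and 1 lower, and of 11 tested in TR9, 1 higher and 3 lower. Ms4a2, the beta chain of the IgE receptor, had 651, 54 and 29 counts and was called lower in both lines. Ms4a6d was called higher in both, with 8.58, 133.17 and 36.72 counts and log2 ratios of 3.93 (2.89 to 5.02) and 2.19 (1.05 to 3.37), in the same order of libraries as Ms4a3.

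Position on the chromosome was compared through the 3 annotated genes on each side of each member, in the order of the RefSeq table. These were 46 genes other than the members, of which 37 were listed. Of these 37 listed genes, 8 were called higher and 7 lower in TR1, and 6 higher and 5 lower in TR9. Among all genes tested, 8.09% were called higher and 13% lower in TR1, and 9.37% higher and 10.8% lower in TR9. Whether the neighbours differed from other genes, or position played a part, was not tested. Beside Elane and Prtn3, Plppr3 had log2 ratios of 1.30 (1.14 to 1.45) and 1.75 (1.60 to 1.90) and Cfd had 4.31 (1.66 to 9.68) and 4.69 (2.08 to 10.05). Plppr3 is the gene whose exons overlap those of Prtn3. The counts of Plppr3 were not whole but those of Prtn3 were, so the divided reads of Plppr3 were not divided with Prtn3. Ptbp1, a splicing repressor on the far side of Plppr3, had −0.44 and −0.53, and Med16, beyond Cfd, had −1.23 and −0.32. Beside Mpo, Tspoap1 had 315, 5012 and 1823 counts, with 3.97 (3.80 to 4.14) in TR1 and 2.63 (2.46 to 2.81) in TR9, which is the order of libraries that Mpo had. Epx lies 3 genes from Mpo and had −8.26 and −7.41. Beside Prss57, Fstl3, which overlaps it, had 2.24 (1.78 to 2.73) and 1.34 (0.83 to 1.87), and Palm, on the other side, had 0.85 and 0.63 and was not called. Beside Ctsc, Rab38, a GTPase of lysosome-related organelles, had 181, 37 and 54 counts, and it was lower as Ctsc was, with −2.32 (−2.87 to −1.80) and −1.65 (−2.12 to −1.20). Beside Cst7, Acss1 went against its member, with −5.83 (−6.61 to −5.14) and −4.29 (−4.77 to −3.87), while Apmap went with it, with 1.22 and 1.51. Mcpt8, next to Ctsg, went against it, with −2.11 and −1.90. Ms4a2, next to Ms4a3, also went against its member, with −3.63 and −4.32, while Ms4a6d went with it, with 3.93 and 2.19. None of the 6 genes around Srgn was called in either line.

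The genes whose ratios to control were closest to those of Elane and of Mpo were found among 8167 genes with at least 50 expected counts in each library, by the Euclidean distance between their pairs of log2 ratios. Closest to Elane was Gfi1, at a distance of 0.09, followed by Abcd2 (0.21), Ly6c2 (0.29), Pde2a (0.32) and Cask (0.35). Ly6c2, a surface antigen of myeloid cells, lay at 3.48 in TR1 and 3.66 in TR9. Closest to Mpo were Abhd5 (0.12), Sh3bgrl3 (0.14), Rab31 (0.24), Grina (0.24) and Daglb (0.24). Abhd5, a coactivator of triglyceride lipase, had 1.87 and 0.65, and none of these 5 was a granule gene of the lists. The distance rests on 3 libraries, of which control enters both ratios.

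**Figure D5:**
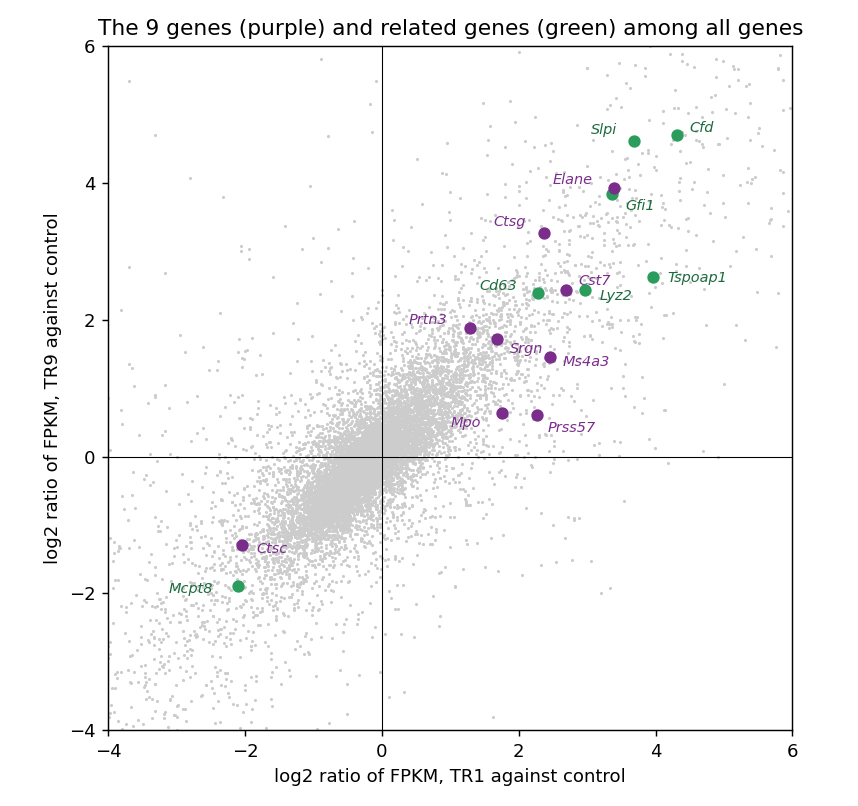
Each grey point is one of 12618 genes with at least 10 expected counts in a library, placed by its log2 ratio of FPKM to control in TR1 (x) and TR9 (y), and genes beyond the axes are not drawn. The 9 genes are purple and related or neighbouring genes are green. Elane (3.39 and 3.93) lies beside Gfi1, Mpo and Prss57 lie low on the y axis at 0.64 and 0.60, and Ctsc lies at the lower left.

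Markers of other cells moved with these differences, and their part in the results was not tested. The shares over all genes tested were 8.09% higher and 13% lower in TR1, and 9.37% higher and 10.8% lower in TR9. Between the TR lines, 4.34% of all genes tested were called higher in TR9 and 2.31% lower. Of 8 erythroid markers, 8 were called lower in each line, and their summed FPKM was 1642 in the control, 36.3 in TR1 and 32.2 in TR9, with Alas2 at 0 in both TR libraries. The 6 megakaryocyte markers were all called lower, with sums of 903, 2.85 and 1.60, and Pf4 and Gp6 at 0 in both TR libraries. The 7 markers of mast cells, basophils and eosinophils were all called lower, with sums of 1155, 78.3 and 88.3. Of 8 markers of stem and multipotent progenitor cells, 6 were called lower and 1 higher in TR1 and 5 lower in TR9, with sums of 215, 73.9 and 75.8 and Slamf1 at 0 in both TR libraries. The control library thus held RNA of several lineages that was scarce in the TR libraries. Markers of later neutrophil stages went the other way. Of 9, all were called higher in TR1 and 7 in TR9, with sums of 97.3 in the control, 23151 in TR1 and 8950 in TR9, and between the TR lines 2 were called higher and 5 lower in TR9. S100a8 and S100a9 made up most of the TR1 sum, with 8188 and 12864 FPKM in TR1 and 2414 and 1773 in TR9. Camp and Ngp, the 2 called higher in TR9, had 364 and 571 FPKM in TR1 and 1647 and 2833 in TR9. The order of the TR sums thus rests on these 2 S100 genes. Other genes of this list stayed scarce, with Ltf at 3.12 FPKM in TR1 and 3.96 in TR9, and Mmp9 at 1.96 and 0.73. Mmp9 and Cxcr2 were not called in TR9, where the log2 ratio of Cxcr2 to control was −0.45 (−0.78 to −0.12). Of 7 monocyte markers, 1 was called higher and 5 lower in each line, while the sum was 260, 574 and 369, of which F13a1, the one called higher, made up 98.8, 543 and 301. Markers of T cells summed to 13.1, 7.39 and 8.68. Of the B lineage genes, Cd79b had 69 counts in control and 0 in TR1 and TR9, and was called lower in both. Cd79a had 8, 0 and 0 counts and was called in neither. Vpreb1, part of the pre-B cell receptor, had 1, 14 and 20 counts and was called higher in TR9, with a log2 ratio of 4.44 (1.79 to 9.81). The 5 marrow stroma markers summed to 300, 170 and 294, but they moved in both directions, with 2 called higher and 3 lower in TR1 and 1 higher and 3 lower in TR9. Col1a1, a collagen chain, had 265, 2.68 and 1.27 FPKM, whereas Vcam1, an adhesion molecule that macrophages also carry, had 25.1, 164 and 291.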

How the data were processed

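RNA-seq was analysed in 3 libraries, 1 per group (control, TR1 and TR9), each pooling 3 mice, as the labels state. According to the study's methods, reads were filtered, mapped with BWA and Bowtie and quantified with RSEM. The submitters' processing notes name mm9, and software versions and library strand are not given in the sources used here. The authors deposited expected counts per gene, which RSEM estimates without normalization, and FPKM, which the authors scaled for gene length and library total. The transcript lengths beside them entered no test. Genes that a library did not list were set to 0.

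The members and lists were chosen with earlier results of these data known. Of 16742 gene IDs, 16698 were named through the RefSeq table (GRCm38.p6), and positions came from GENCODE M21 (GRCm38), since the files hold none. Pairs of libraries were compared on rounded expected counts with the exact Poisson test conditional on both totals (scipy 1.17.1), and p-values were adjusted by Benjamini-Hochberg over every gene that one of the pair lists. Log2 ratios were taken of FPKM after values under 0.01 were raised to 0.01. Folds against 0 used 3 counts per library, a floor of 0.538 to 0.585 FPKM for a gene of 1 kb. Intervals of ratios between 2 genes used a normal approximation on log counts. Besides the 9 members, genes named were those of each list that reached 100 FPKM anywhere or were among the 3 largest changes called in both lines, 3 neighbours on each side, and the 5 genes most like Elane and Mpo. A few other list genes were named to show how a list varied. In simulated data, 192 of 200 genes changed by a log2 ratio of 2 were called right for TR1 against control (15743 genes), 191 for TR9 against control (15749 genes) and 193 for TR9 against TR1 (15140 genes), and 0 unchanged genes were called. Both simulated libraries were drawn from the same means with counting error only, and the genes changed were not among the least abundant. This is the error that the test itself assumes, so the simulation says nothing of a spread between mice. Alternatives were other scalings (TMM, TPM, median of ratios, totals without the 9 genes or without the 100 most abundant genes), a value of 0.001 FPKM or a pseudocount of 1, a minimum of 10 counts, other thresholds, and edgeR's exact test with an assumed variation. The share of summed FPKM was chosen after seeing the data. Protein sequences were not analysed here. Software was matplotlib 3.10.9, pandas 2.3.3 and numpy 2.4.6 under Python 3.11.15, and edgeR 4.0.16 under R 4.3.3.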

Additional observations from a re-analysis of the deposited data

Results flagged for a closer look

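The results below stood out because the same contrast with control gave different values in the TR lines, by the Poisson test of TR9 against TR1. The test compares single libraries and says nothing of the spread between mice. Among the 9 genes, the log2 ratio of TR9 against TR1 was −1.11 for Mpo, −1.66 for Prss57 and −1.00 for Ms4a3. Among genes of the lists it was −1.44 for Cd68, −1.74 for Ms4a6d and 1.33 for Spi1. Markers of later neutrophil stages went in both directions, with 2.18 for Camp and 2.31 for Ngp, and −2.06 for Lcn2, −1.76 for S100a8 and −2.86 for S100a9. Of the genes most like Mpo, Abhd5 was at −1.23 and Daglb at −1.35. Of the chromosomal neighbours, Rnf43 was at −1.21, Tspoap1 at −1.34, Acss1 at 1.54 and Oosp1 at −3.61. The value of Oosp1 rests on few counts, 40 in TR1 and 3 in TR9. Acss1 had 17 counts in TR1 and 45.38 in TR9, both far below the 947 in control.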

How the results depend on the processing

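No paired analysis was possible because each group has 1 library. Nor could a library be left out. Over the 8 alternatives of scaling, floor value or filter, 210 of 216 log2 ratios of single members kept direction and call. The exceptions lay between the TR lines. Srgn changed sign, at −0.10 with TMM, −0.09 with the median of ratios and −0.03 without the 100 most abundant genes. With TPM, Ctsg (1.01) became called, and Mpo (−0.99) and Ms4a3 (−0.89) were no longer called, leaving 1 gene higher and 1 lower.

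With edgeR's exact test and a biological coefficient of variation set to 0.2, the calls held for 8 of the 9 genes in TR1, all but Prtn3. In TR9 it called 5 (Elane, Prtn3, Ctsg, Cst7 and Srgn), so 0 lower, and between the lines 0. At 0.4 it called 0 genes in TR1 (0 higher, 0 lower), 1 in TR9 (Elane, so 1 higher and 0 lower) and 0 between the lines. With an absolute log2 ratio of at least 2, 5 were higher in TR1, 3 in TR9 were called, all 3 higher and 0 lower, and 0 between the lines. Over all genes, calls in TR1 went from 1317 higher and 2120 lower to 658 and 992 at 0.2, 170 and 347 at 0.4, and 685 and 1133 with the stricter ratio. In TR9 they went from 1527 and 1766 to 717 and 830, 161 and 287, and 737 and 928, and between the lines from 681 and 363 to 188 and 94, 13 and 2, and 283 and 135. As a share of summed FPKM, the 9 genes held 1.15% in control, 4.66% in TR1 and 5.53% in TR9, so TR9 then lay above TR1. Depth limited Ctsc and Prss57 most, with 77 and 301 counts in the libraries where they were lowest.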
